A study of Oedaleus asiaticus with 9 samples.

Results

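The miR-750 family is represented in the table by 4 of its 365 entries, the known entries miR-750-x, miR-750-y and miR-750-z and an entry that the authors predicted and numbered m0007-5p. The 3 known entries were taken by family name. The predicted entry was added because miR-750-x contains its whole sequence. An earlier analysis of the same libraries had called m0007-5p higher in the 5th instar and in adults than in the 3rd instar, and had shown its levels and those of miR-750-x. The 4 entries were thus selected on those values of m0007-5p, so the stage differences of m0007-5p and every sum or ratio that contains it are given here as a description without a test. Small RNAs of female *Oedaleus asiaticus*, a grasshopper of Asian steppe grassland, had been sequenced at 3 stages, 3rd instar nymphs, 5th instar nymphs and adults after emergence. All animals were 3 days into their stage and normally fed without further treatment, and each stage had 3 libraries, 9 in all. The labels name no body part and do not say whether replicates are different animals, so the p-values reflect the spread among these libraries, which could be technical. In whole-animal or tissue RNA, fewer cells that make a miRNA and less of it per cell cannot be told apart.

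A miRNA is cut from the 2 arms of a short RNA hairpin. The arms leave as a paired duplex, and usually 1 strand is loaded into an Argonaute protein while the other is degraded. The loaded strand finds its targets mainly through its seed, bases 2 to 8 from the 5′ end. miR-750 is an old family of protostome animals, found in insects, crustaceans and molluscs and not annotated in *Drosophila melanogaster*. In mosquitoes its gene lies beside that of miR-1175.

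The sequences of the 4 entries are shown because they define which entries are arms and which are length forms of the same arm. They are written 5′ to 3′ as in the deposited table, with T for U and the seed in capitals.
m0007-5p: aGTTGGAAgtggggatctcggca
miR-750-x: aGTTGGAAgtggggatctcggcat
miR-750-y: cCAGATCTaactcttccagctca
miR-750-z: cCAGATCTaactcttccagctcat
The entries form 2 pairs. m0007-5p (23 nt) and miR-750-x (24 nt) begin at the same base and share the seed GTTGGAA, and miR-750-x has 1 further T at its 3′ end. miR-750-y (23 nt) and miR-750-z (24 nt) begin at the same base and share the seed CAGATCT, and miR-750-z likewise has 1 further T. No other entry of the table has either seed. Both pairs therefore differ at the 3′ end and not in the seed. The table does not say what x, y and z stand for. The authors' name of the predicted entry places its sequence, and with it miR-750-x, on the 5′ arm.

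Folded as a duplex with ViennaRNA, m0007-5p and miR-750-y paired from base 1 to base 22 of each, with 18 base pairs and a predicted free energy of -21.8 kcal/mol. Each strand kept 1 unpaired base at its 3′ end. The same 18 pairs formed with miR-750-x, which left 2 bases unpaired at its own 3′ end, and miR-750-z left 2 as well. The y and z entries are accordingly referred to as the 3′ arm. Pairing alone does not assign an arm, since miR-750-x also paired with miR-1175-y over 18 base pairs (-19.5 kcal/mol), against 16 for the miR-1175 entries with each other (-15.4 kcal/mol).

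The 3′ arm entry miR-750-y carried nearly all counts of the family. Levels are given as normalised CPM, the count relative to the library's listed counts (counts per 1000000) after scaling by its TMM factor. They are not divided by length, since each read is a whole small RNA. Library totals ranged from 1462586 to 5309504 counts and TMM factors from 0.854 to 1.166, and a single predicted entry outside the family took 59.1% to 74.0% of each library. Together the 4 entries made up 0.684% ± 0.115 of the counts (SD, n = 9). By mean level miR-750-y ranked 12th of the 365 entries, miR-750-z 39th, m0007-5p 56th and miR-750-x 108th. In every library the order was the same, miR-750-y above miR-750-z, above m0007-5p, above miR-750-x.

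miR-750-y stood at 6419, 6635.5 and 5537 CPM in 3rd instars, 5513, 7358 and 6596 CPM in 5th instars and 5697, 7431 and 6158 CPM in adults. The 3 stages overlapped, and the highest library was only 1.35 times the lowest. Counts of 8611 to 28351 per library left a counting error (the mean distance to the ends of the exact Poisson 95% interval) of at most 2.12% of the count.

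miR-750-z, the same strand with a further T, stood at 408, 329 and 274 CPM in 3rd instars, 249, 396 and 225 CPM in 5th instars and 306, 273 and 293 CPM in adults. The stages overlapped, and the adult libraries lay inside the range of the 3rd instar except for adult 2, just below its lowest.

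m0007-5p, the shorter 5′ arm form, stood at 50.5, 57.4 and 44.7 CPM in 3rd instars, 109, 129.7 and 106 CPM in 5th instars and 139, 134 and 128 CPM in adults. All 6 libraries of the later stages lay above all 3 of the 3rd instar, while the 5th instar and the adult overlapped. Among all entries tested between stages, 29.1% did not overlap between the 5th and 3rd instar. Between the adult and the 3rd instar it was 31.3%. Its counts of 151 to 588 carried a counting error of at most 16.3%.

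miR-750-x, the longer 5′ arm form, stood at 18.0, 12.3 and 9.26 CPM in 3rd instars, 17.0, 27.1 and 12.4 CPM in 5th instars and 31.8, 10.9 and 21.7 CPM in adults. Its stages overlapped, and its highest value over all libraries, in adult 1, and its second lowest, in adult 2, came from the same stage. It rested on 33 to 100 counts per library, with a counting error of up to 35.8%. Its SD among libraries of the same stage was 33.8% of the mean in 3rd instars, 39.9% in 5th instars and 48.7% in adults.

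**Figure D1:**
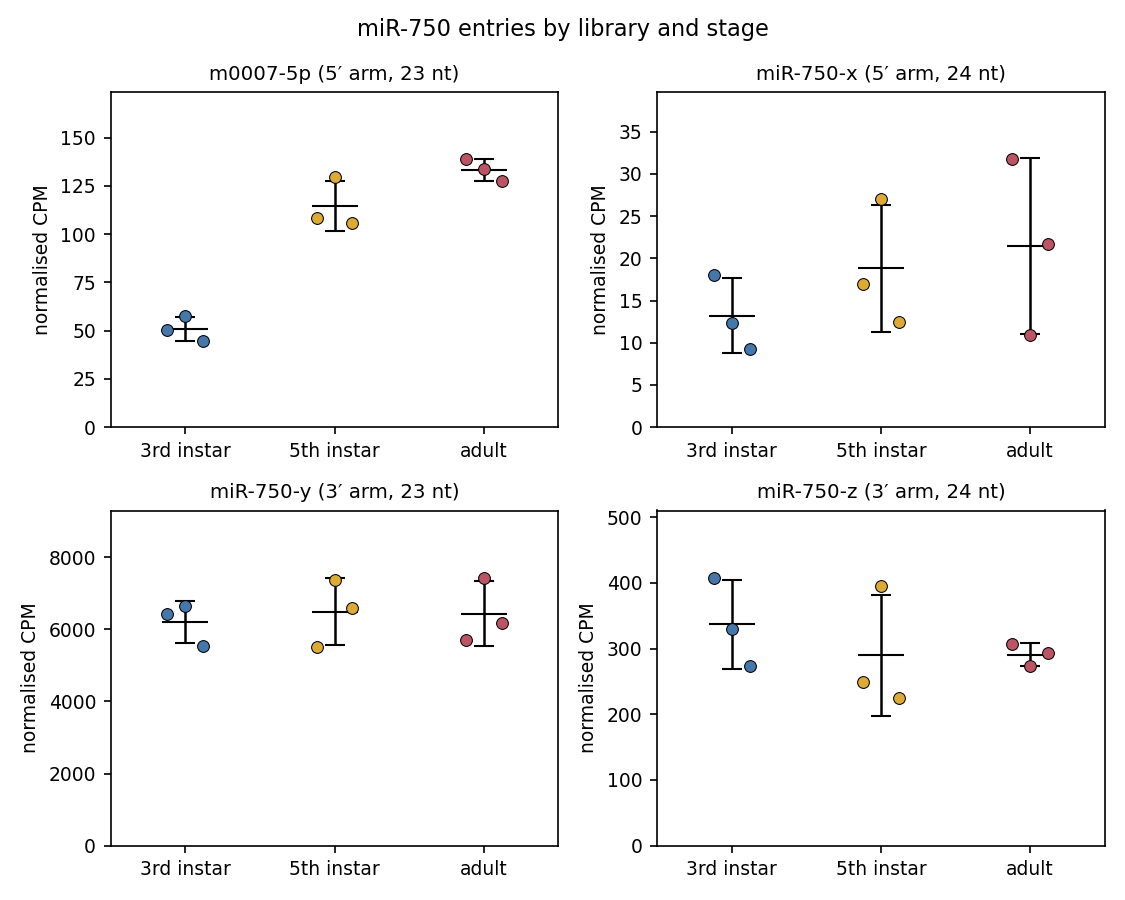
Normalised CPM (y axis) of each miR-750 entry in the 3 libraries of each stage (x axis); points are libraries, horizontal bars the mean and whiskers the SD. The 3rd instar libraries of m0007-5p sit between 44.7 and 57.4 CPM, below all 6 libraries of the later stages, while the stages overlap in the other 3 panels. Of all tested entries, 29.1% were separated between the 5th and 3rd instar and 31.3% between the adult and 3rd instar.

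The stages were set against each other to look for miRNAs that change through nymphal growth and the final moult. None of the 3 known miR-750 entries passed in any comparison. edgeR's quasi-likelihood test over all 179 tested entries was read at the study's own limits, a Benjamini-Hochberg adjusted p under 0.05 together with a log2 fold change beyond 1 in either direction. It called 0 of these 3 in each comparison. At an unadjusted p under 0.05 there were also 0, and the alternative tool DESeq2 called 0. DESeq2 gave no adjusted p for miR-750-x in the 5th over the 3rd instar, so it could not call that entry there. All 4 family entries passed the filter on low counts. Over all tested entries, 1.68% were called for the 5th against the 3rd instar, 1.12% for the adult against the 5th instar and 3.91% for the adult against the 3rd instar. In the same order, an unadjusted p under 0.05 was reached by 17.3%, 10.1% and 35.8% of them, and DESeq2 called 2.23%, 1.12% and 8.38%.

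miR-750-y averaged 6489 ± 927 CPM in the 5th and 6197 ± 582 CPM in the 3rd instar (SD, n = 3 each), a log2 fold change of 0.066 ± 0.16 (SE, edgeR adjusted p = 0.830). Adults averaged 6429 ± 898 CPM, a log2 fold change of 0.053 ± 0.16 over the 3rd instar (edgeR adjusted p = 0.839) and of -0.013 ± 0.16 over the 5th instar (edgeR adjusted p = 0.989). These differences of the main strand were smaller than their standard errors.

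For miR-750-z the log2 fold change was -0.22 ± 0.22 in the 5th over the 3rd instar (SE, edgeR adjusted p = 0.660), -0.21 ± 0.22 in the adult over the 3rd instar (edgeR adjusted p = 0.509) and 0.0057 ± 0.22 in the adult over the 5th instar (edgeR adjusted p = 0.995). For miR-750-x it was 0.51 ± 0.43 in the 5th over the 3rd instar (edgeR adjusted p = 0.562), 0.69 ± 0.43 in the adult over the 3rd instar (edgeR adjusted p = 0.265) and 0.18 ± 0.43 in the adult over the 5th instar (edgeR adjusted p = 0.890). The standard errors of miR-750-x were the largest of the family, and a missed threshold does not show that its level was equal between stages.

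The predicted entry, given without a test, averaged 115 ± 13.0 CPM in the 5th and 50.9 ± 6.36 CPM in the 3rd instar (SD, n = 3 each). On the fitted scale it was 2.25-fold higher in the 5th instar (log2 1.17). Adults averaged 133 ± 5.62 CPM, 2.62-fold higher than the 3rd instar (log2 1.39) and 1.16-fold higher than the 5th instar (log2 0.22). It is the family entry among the calls of both comparisons with the 3rd instar, which is how it came to be described. Most of its difference thus lay between the nymphal stages, and less of it across the final moult.

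The 5th and 3rd instar libraries did not overlap for 29.1% of tested entries, the adult and 5th instar libraries for 14%, and the adult and 3rd instar libraries for 31.3%. Of the 3 known family entries, 0 were separated in any of the comparisons. With scaling by library totals and no factors, the median log2 fold change of all entries was 0.295 for the 5th over the 3rd instar, against 0.0036 with TMM factors, and 0.233 against 0.0496 for the adult over the 3rd instar. miR-750-z then stood at 0.054 for the 5th over the 3rd instar in place of -0.22, so its direction depends on the scaling.

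**Figure D2:**
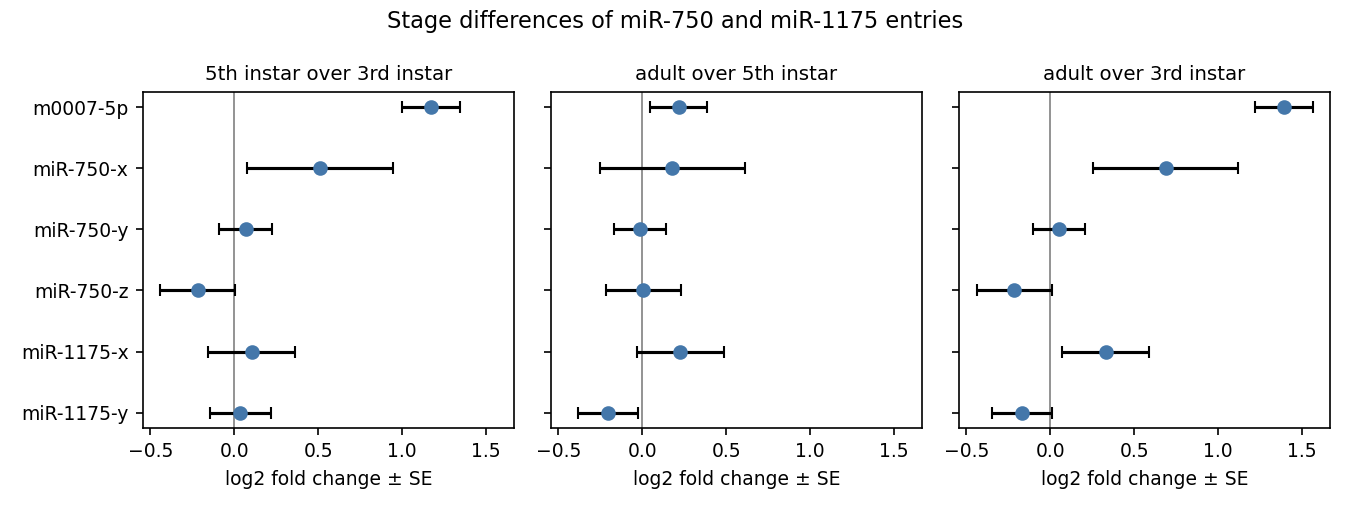
Log2 fold change (x axis, ± SE) of the miR-750 entries and of both miR-1175 entries (rows) in the 3 stage comparisons (panels), from the fit over all tested entries. m0007-5p lies at 1.17 and 1.39 in the comparisons with the 3rd instar, and miR-750-y lies within 1 SE of 0 in each panel. The entry m0007-5p was chosen on these differences, so its whiskers are no test of them.

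The arms were compared as ratios within each library, in which the library's scaling cancels. miR-750-y exceeded miR-750-x in 9 of 9 libraries, by 179 to 683 times with a geometric mean of 385 (exact sign-flip permutation test over libraries, two-sided, p = 0.00391, the smallest that 9 libraries can give). The levels of miR-750-x were known when the entries were chosen, and a gap this wide leaves no other p possible. That p therefore adds no support. The ratio was 356, 539 and 598 in 3rd instars, 325, 272 and 532 in 5th instars and 179, 683 and 284 in adults. Adults alone held both the lowest and the highest value, and the ratio did not separate the stages (exact permutation test of the spread between stages, two-sided, p = 0.568, adjusted p = 0.568 over 4 such ratios). Between single stages the exact permutation p was 0.2 for the 5th against the 3rd instar, 0.9 for the adult against the 5th and 0.5 for the adult against the 3rd, where 3 against 3 libraries cannot go below 0.1. The ratio rests on the 33 to 100 counts of miR-750-x per library. Since miR-750-x is the lesser form of its arm, the ratio of whole arms was lower. With both forms summed on each side, the 3′ arm stood at 35.2 to 108 times the 5′ arm, with a geometric mean of 60.8, given without a test because the sum contains m0007-5p.

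Of the 37 known families with both an x and a y entry, counting once those whose sequences are identical, 19 had more y and 18 more x, so neither letter marks the abundant strand in this table. Among the 23 families with both entries counted in every library, miR-750 had the fifth lowest share of its minor entry, 0.283% of both on average, where the median family had 4.93%. That share counts miR-750-x alone. With m0007-5p added, the 5′ arm made up 0.921% to 2.76% of the family's counts. Families with an entry missing from some library are left out of this ranking. Over all 37 families, miR-750 ranked 10th by how unequal its x and y counts were.

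With both length forms added on each side, m0007-5p plus miR-750-x made up 0.993%, 0.992% and 0.921% of the family's counts in the 3rd instar. The share was 2.13%, 1.98% and 1.71% in 5th instars and 2.76%, 1.84% and 2.26% in adults. The 3rd instar libraries lay below every later one. The share averaged 0.969% ± 0.0415 in 3rd instars, 1.94% ± 0.216 in 5th instars and 2.29% ± 0.462 in adults (SD, n = 3 each). In level, the 5′ arm averaged 64.1 ± 8.76 CPM in 3rd instars, 134 ± 20.4 CPM in 5th instars and 155 ± 13.9 CPM in adults. The 3′ arm averaged 6534 ± 630.3 CPM in 3rd instars, 6779 ± 997 CPM in 5th instars and 6719.7 ± 881 CPM in adults. So the share moved with the 5′ arm while the 3′ arm stayed within the spread of its libraries. Most of the 5′ arm is m0007-5p, whose stage values were known when the entries were chosen, so the shift in share repeats that difference and adds no support to it.

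**Figure D3:**
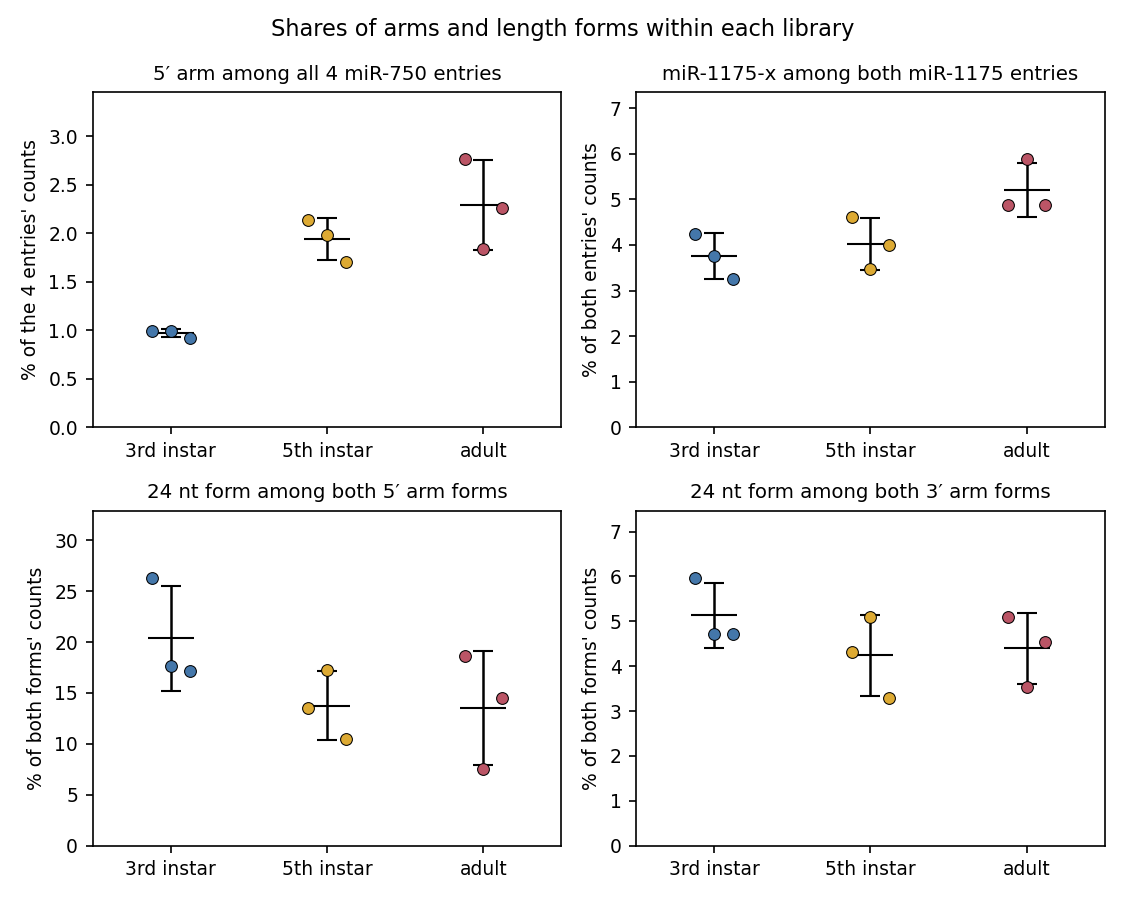
Shares in percent of counts (y axis) within each library by stage (x axis), for the 5′ arm of miR-750 among its 4 entries, miR-1175-x among both miR-1175 entries, and the 24 nt form among both forms of each miR-750 arm; points are libraries, horizontal bars the mean and whiskers the SD. The 5′ arm share is under 1% in the 3rd instar and 1.71% to 2.76% later, and the shares of the 24 nt forms overlap between stages.

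Long and short forms were then set against each other within each arm. The sources used here do not say how the authors' counting assigned reads that match both an entry and its shorter form, and the part of that step in the split between forms was not tested. On the 5′ arm the shorter form was the more abundant, with m0007-5p at 2.80 to 12.3 times miR-750-x in 9 of 9 libraries. The 24 nt form made up 26.3%, 17.6% and 17.1% of this arm in 3rd instars, 13.5%, 17.3% and 10.5% in 5th instars and 18.6%, 7.53% and 14.5% in adults. The stages overlapped. The Wilson 95% interval of a single library was as wide as 20.8% to 32.8% (3rd instar 1).

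On the 3′ arm the 24 nt form miR-750-z made up 5.98%, 4.73% and 4.71% in 3rd instars, 4.31%, 5.10% and 3.30% in 5th instars and 5.10%, 3.54% and 4.55% in adults. The stages overlapped, and the spread between them did not pass (miR-750-z over miR-750-y, exact permutation test, two-sided, p = 0.389, adjusted p = 0.519 over the 4 ratios). The 24 nt form was thus the minor form on both arms, and its share was higher on the 5′ than on the 3′ arm in 9 of 9 libraries. No genome was used here, so whether its last T is encoded in the gene was not tested.

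Nested entries of this kind were common in the table. In 35 pairs of different sequences 1 lay within the other, 32 of them with the same 5′ end, and the longer entry had fewer counts in 26 of these 32. In 10 pairs the longer entry had 1 further 3′ base, a T in 5, an A in 3 and a C in 2. m0007-5p within miR-750-x was the only pair in which a predicted entry was the shorter one of a known entry, a point chosen after the pairs were seen. For the 24 pairs with a shared 5′ end and both entries tested, the mean log2 ratio of longer to shorter was smaller in adults, against the 3rd instar, in 18, with a median difference in log2 ratio of -0.36 and a range of -1.01 to 0.32. The libraries were separated in this direction for 10 of the 24 pairs (41.7%) and in the other direction for 0. The miR-750 pairs stood at -0.78 for miR-750-x over m0007-5p and at -0.24 for miR-750-z over miR-750-y, on either side of that median and each with overlapping libraries. Both are among the 24 pairs. m0007-5p was chosen as higher in adults than in the 3rd instar, so the lower ratio of its pair adds no support.

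**Figure D4:**
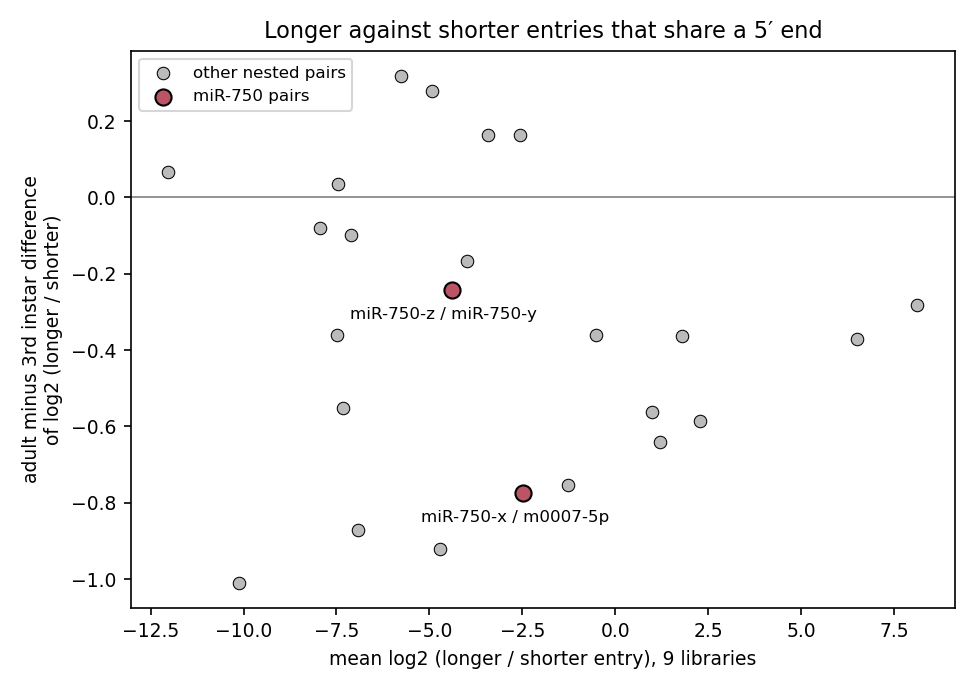
Difference between adult and 3rd instar means of the log2 ratio of the longer to the shorter entry (y axis) against the mean log2 ratio over 9 libraries (x axis), for 24 nested pairs with the same 5′ end. Most pairs lie below 0, and both miR-750 pairs, at -0.78 and -0.24, lie within the range of the others.

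miR-1175, the cluster neighbour of miR-750 in mosquitoes, has 2 entries in the table.
miR-1175-x: aAGTGGAGaagtggtctcttca
miR-1175-y: tGAGATTCaactcctccaact
They are shown because miR-1175-y and miR-750-y match at 15 of 21 positions counted from base 1, while only 4 of their 7 seed bases agree. No genome was used here, so whether both genes lie together in this grasshopper was not tested. miR-750-y exceeded miR-1175-y in 9 of 9 libraries, by 7.41 to 9.81 times. The ratio was 7.41, 9.27 and 7.68 in 3rd instars, 8.34, 7.44 and 9.27 in 5th instars and 9.81, 9.65 and 8.85 in adults. The stages overlapped, and their spread did not pass (exact permutation test, two-sided, p = 0.229, adjusted p = 0.457 over the 4 ratios).

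miR-1175-y averaged 768 ± 85.0 CPM in 3rd instars, 787 ± 177 CPM in 5th instars and 682 ± 95.4 CPM in adults (SD, n = 3 each). Its minor entry miR-1175-x averaged 30.2 ± 7.35, 32.4 ± 2.99 and 37.9 ± 9.40 CPM in the same order. The mean share of miR-1175-x among both entries was 3.75% in 3rd instars, 4.03% in 5th instars and 5.21% in adults. By library the share was 4.25%, 3.76% and 3.25% in 3rd instars, 4.62%, 3.48% and 4.004% in 5th instars and 4.88%, 5.89% and 4.87% in adults. Adult libraries lay above all those of the 3rd and of the 5th instar, and the 2 nymphal stages overlapped. The spread between stages did not pass (miR-1175-x over miR-1175-y, exact permutation test, two-sided, p = 0.0571, adjusted p = 0.229 over the 4 ratios). It passed unadjusted without 3rd instar 1 (exact permutation p = 0.0393), 5th instar 1 (exact permutation p = 0.0429) or 5th instar 2 (exact permutation p = 0.0393). Leaving out any other library, it did not pass (exact permutation p of 0.075 to 0.15). Among the 23 families counted above, the minor entry's share did not overlap between adults and the 3rd instar in 4 families that were higher and 4 that were lower in adults.

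The families miR-1175 and miR-71, both known across protostomes and not from *Drosophila melanogaster*, together have 5 entries, all tested. edgeR called 0 of the 5 in each comparison and DESeq2 called 0, where the shares over all tested entries were 1.68% (5th over 3rd instar), 1.12% (adult over 5th instar) and 3.91% (adult over 3rd instar) with edgeR and 2.23%, 1.12% and 8.38% with DESeq2. At those shares a count of 0 among 5 entries sets them apart from no others. At an unadjusted p under 0.05 there were 2 in the 5th against the 3rd instar, 2 in the adult against the 3rd instar and 0 in the adult against the 5th instar. The 2 were miR-71-x (22 nt) and miR-71-z (24 nt), length forms that begin at the same base. Over all tested entries that limit was passed by 17.3%, 35.8% and 10.1% in the same order, so 2 of 5 in the adult against the 3rd instar is near the share of all entries. Libraries did not overlap for 2, 3 and 0 of the 5 in that order. Over all tested entries it was 29.1%, 31.3% and 14%. In the adult over the 3rd instar, 1 was higher and 4 lower, with a median log2 fold change of -0.34 beside 0.0496 over all tested entries. In the 5th over the 3rd instar, 3 were higher and 2 lower (median 0.036 beside 0.0036). In the adult over the 5th instar, 1 was higher and 4 lower (median -0.081 beside 0.0792).

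The entries most like each family member were found by Pearson's r of log2 CPM over the 9 libraries, as a description. The libraries share their scaling and stage order, so r carries both. For m0007-5p they were miR-980-y (r = 0.92, Spearman's rho = 0.85), miR-79-y (r = 0.86, rho = 0.88) and miR-125-x (r = 0.86, rho = 0.68). All 3 had their lowest stage mean in the 3rd instar, as m0007-5p did. They were picked for their correlation with it, so this likeness follows from the choice and adds no support. miR-980-y averaged 1.62 CPM in 3rd instars, 4.90 CPM in 5th instars and 5.55 CPM in adults, a low level. miR-79-y averaged 64.5, 87.0 and 95.9 CPM in the same order, and miR-125-x 1251, 1559 and 1529.7 CPM.

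For miR-750-y the most alike were miR-1000-x (r = 0.81, rho = 0.80), miR-282-x (r = 0.79, rho = 0.78) and miR-10374-y (r = 0.69, rho = 0.64), which had no counts in the 3rd instar, and miR-1175-y had r = 0.69 with it (rho = 0.63). For miR-750-z they were a predicted entry, m0003-5p (r = 0.80, rho = 0.78), miR-71-z (r = 0.68, rho = 0.80) and miR-9-x (r = 0.64, rho = 0.60). For miR-750-x they were the predicted entry m0002-3p (r = 0.82, rho = 0.75), bantam-y (r = 0.79, rho = 0.73) and miR-190-y (r = 0.78, rho = 0.65). The 4 members thus shared none of their 3 nearest entries. Among themselves r ranged from -0.24 between miR-750-z and m0007-5p to 0.54 between miR-750-x and m0007-5p, and it was 0.34 between miR-750-y and miR-750-z, which share a strand.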

How the data were processed

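Per the labels, small RNA of 15 to 30 nt was recovered by gel, and the libraries were read as 50 bp single ends. Aligner, counting tool and reference: not given in the sources used here. The deposited table holds raw read counts, not normalised by the authors, and TPM values, which per the file headers and as checked on the table are the authors' counts scaled by a library total, with 0.01 at 0 counts. Reads carry no molecular identifiers, so intervals cover counting error only. Counts were tested with edgeR 4.0.16 in R 4.3.3 (filter by stage, TMM factors, group means over 9 libraries, robust quasi-likelihood fit). Standard errors came from the log2 fold change and its F statistic. Ratios within libraries used exact permutation tests, and shares Wilson 95% intervals. Of the 4 ratios, 3 were chosen after seeing the data. Duplexes came from RNAduplex of ViennaRNA 2.7.2. DESeq2 1.42.0 was an alternative. The code was tested on simulated data. The members and lists were chosen with earlier results of these data known. Named were the members, the miR-1175 and miR-71 entries, entries nested with a member and the 3 entries most correlated with each member. Same-numbered libraries were not treated as pairs. Libraries of the same stage all differed by more than sampling noise (chi-square per degree of freedom at least 67.2).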

Additional observations from a re-analysis of the deposited data

How the results depend on the processing

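The counts of called entries were 3 (5th over 3rd instar), 2 (adult over 5th instar) and 7 (adult over 3rd instar). With library totals and no factors they were 1, 1 and 19, and with totals implied by the TPM values (chosen after seeing the data) 1, 1 and 20. For the adult over the 3rd instar the split was 4 higher and 3 lower with TMM factors, 3 and 4 with RLE factors, 16 and 3 with totals and 17 and 3 with TPM totals. For the 5th over the 3rd instar it was 1 higher and 2 lower with TMM factors and 1 and 0 with either totals, and for the adult over the 5th instar 1 and 1 against 0 and 1. DESeq2 called 15 and the adjusted p alone 14 for the adult over the 3rd instar, and with only the compared stages in the fit the adult over the 5th instar gave 0. Leaving out 1 library gave 1 to 3, 0 to 2 and 3 to 9. The cause was not tested. miR-750-x, miR-750-y and miR-750-z were called in 0 of their 21 or 22 settings. For miR-750-x in the 5th over the 3rd instar these include DESeq2, which gave no adjusted p. The log2 fold change of m0007-5p ranged from 1.08 to 1.46 in the 5th over the 3rd instar and from 1.29 to 1.58 in the adult over the 3rd instar.

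Signs turned only for values that were not called. For miR-750-z in the adult over the 5th instar, the log2 fold change was -0.036 with DESeq2 and with RLE factors, -0.083 with totals and no factors, -0.040 with totals without the 5 most abundant entries, -0.043 with the 10 CPM filter, -0.070 with only these stages, -0.084 with TPM totals and -0.0039 without the most abundant entry, and -0.17 to 0.27 leaving out 1 library. For miR-750-z in the 5th over the 3rd instar it was 0.054 with totals and 0.051 with TPM totals. For miR-750-y it was 0.0072 with no filter and -0.17 to 0.063 leaving out 1 library (adult over 5th instar), and -0.020 with the 10 CPM filter and -0.041 to 0.14 leaving out 1 library (adult over 3rd instar). For miR-750-x in the adult over the 5th instar it was -0.22 to 0.51 leaving out 1 library.

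The spread of miR-750-y over miR-750-x between stages had an exact permutation p of 0.107 to 0.779 leaving out 1 library. The planned stage test with nested entries summed into each arm is not reported, because the sum contains m0007-5p, on whose stage values the entries were chosen. The log2 ratio was 8.49 to 8.73 leaving out 1 library, and 5.93 with nested entries summed, where the denominator gains m0007-5p. Without a library, the m0007-5p share of the 5′ arm was 78.0% to 82.6% in 3rd instars, 84.6% to 88.0% in 5th instars and 83.4% to 89.0% in adults. Whether replicate numbers mark pairs was not settled. Of the 9 same-numbered pairs, 5 had deviations correlated above 0.1, with r from -0.227 to 0.42. In pairs with different numbers r ranged from -0.434 to 0.283. The best match of a library in another stage had its own number in 9 of 18 comparisons. With the replicate block, 2, 2 and 7 entries were called, and the permutation p of the ratio was 0.667.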
